A study of Mus musculus with 27 samples.

Results

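Voltage-gated sodium and calcium channel genes were followed across sorted mouse retinal cells. They were chosen by name: symbols made of Scn, digits and a or b, or starting with Cacna, Cacnb or Cacng, without Cacna1f, Cacna2d4 and Cacnb2, with 1 probe set per gene. The rule gave 31 genes of 19301 with a probe set of a single symbol. These were 7 sodium channel alpha subunits (Scn1a, Scn2a, Scn7a, Scn8a, Scn9a, Scn10a and Scn11a), 3 sodium channel beta subunits (Scn2b, Scn3b and Scn4b), 9 pore-forming calcium channel subunits (Cacna1a to Cacna1e, Cacna1g to Cacna1i and Cacna1s), 3 alpha2delta subunits (Cacna2d1 to Cacna2d3), 2 calcium channel beta subunits (Cacnb1 and Cacnb4) and 7 Cacng genes (Cacng1 to Cacng5, Cacng7 and Cacng8). A probe set that lists more than 1 gene was not used.

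Expression was measured on 27 arrays in 9 groups of 3 biological replicates, each from 200 cells sorted by fluorescence from adult retina. Pure starburst amacrine cells came from 129S6-Chat_tm1(cre)Lowl/J mice crossed with Rosa26-LSL-RFP, in which Cre made from the Chat locus switches on RFP, and pure cones from Tg(Chrnb4-EGFP)1Gsat, a transgene that puts EGFP under Chrnb4 control. The 6 mixtures of both lines are named here by their number of cones out of 200 cells, which was 50, 75, 100, 150, 157 or 183, the rest being starburst cells. Arc amacrine cells, a batch control of the series, came from Tg(Arc-EGFP)194Gsat/Mmcd, a transgene that puts EGFP under Arc control. No group received a treatment. All samples are labelled as a mix of C57BL/6J with an FVB/N-Swiss Webster hybrid. Mice from the repository were such hybrids, carrying a recessive mutation of photoreceptor degeneration, and were backcrossed before use. Retinas were pooled before sorting, and cell type cannot be told apart from mouse line. Precision rests on 3 arrays a group.

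Sodium channel alpha subunits form the pore that carries the upstroke of the action potential, and beta subunits set its gating and its place in the membrane. Calcium channels are built around an alpha1 pore, with beta and alpha2delta subunits that bring it to the surface and tune it. The Cacng genes are named for the gamma subunit of the muscle calcium channel, Cacng1, but most of the family, among them Cacng2 (stargazin), Cacng3, Cacng4 and Cacng8, encode transmembrane AMPA receptor regulatory proteins, or TARPs, which carry AMPA-type glutamate receptors to synapses and slow their closing. Cones release glutamate through a ribbon synapse without firing sodium spikes, while amacrine cells receive glutamate from bipolar cells.

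Values are log2 expression, and a gene was tested if it lay above the median of all values (2.83) on at least 3 arrays. This held for 13 of the 31 channel genes (41.9%) and for 12441 of all 19301 genes (64.5%). The threshold for a call was an absolute log2 difference of at least 1 with a limma p, adjusted over all tested genes, below 0.05. Errors of levels are SDs over 3 arrays, and errors of differences are standard errors from the fit over 27 arrays. In sorted pools, fewer cells of a type and less RNA per cell cannot be told apart.

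Marker genes were read first. The mean of 7 cone markers was 10.1 in pure cones, 4.19 in pure starburst cells and 3.56 in Arc cells, and that of 6 starburst markers was 6.24 in pure starburst cells, 3.07 in cones and 2.84 in Arc cells. All 7 measured rod markers lay above the filter in every group, with means of 7.57 in cones, 6.24 in starburst cells and 5.32 in Arc cells. On the third arrays the rod markers averaged 8.48 in pure cones, against 7.14 and 7.10 on the other two, while cone markers there were lower (9.15 against 10.6 and 10.5). The mixture with 75 cones went against its label in order: its cone markers averaged 7.52, below the 8.87 of the mixture with 50 cones, with 5.85 on the third of its arrays. Horizontal cell markers (3 of 4 measured) averaged 4.44 in starburst cells, 3.76 with 183 cones, 2.88 in cones and 2.83 in Arc cells, and 7 ganglion cell markers 2.89, 3.04, 3.14 and 3.48. The part of these other cell types in the results was not tested. The third arrays of the groups with over 100 cones, or the mixture with 75 cones, were left out in turn. Where this changes a reported call, or moves the value of a called gene by over 1.5 times, both values are given. For genes that were not called, the second value is given in some cases only.

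The channel genes that differed most between the cell types were 2 TARP genes, Cacng2 and Cacng3, and both were low in cones and high in starburst cells. The 250 bases before the RefSeq start of Cacng2 are shown because it was called in 4 of the 5 comparisons below. Cacng3 was called in the same 4, and its window is not shown. Capitals mark CAGCTG, an E-box, searched on both strands, where it reads the same, along with TAATCC (the core bound by the photoreceptor factor CRX), CAGCACC (part of the element bound by REST) and GGGCGG (a GC box).

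Cacng2, GRCm38.p6, chr15:78119281-78119530, minus strand: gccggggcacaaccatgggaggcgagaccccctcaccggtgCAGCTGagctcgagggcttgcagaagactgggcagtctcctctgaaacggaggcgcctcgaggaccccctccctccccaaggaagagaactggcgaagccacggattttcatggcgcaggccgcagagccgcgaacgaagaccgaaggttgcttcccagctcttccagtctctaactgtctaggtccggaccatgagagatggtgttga

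The order is 5′ to 3′ along the strand of the gene. The window holds a single CAGCTG, starting 209 bases before the start of Cacng2, and the other 3 motifs are absent from these letters. Over the same 250 bases of all 32851 promoters in the RefSeq table, 13% hold CAGCTG, 6.25% TAATCC, 5.73% CAGCACC and 32.7% GGGCGG. Of 34 windows of 25 channel genes in the table, 9 hold CAGCTG, 3 TAATCC, 0 CAGCACC and 12 GGGCGG. A match is a description of letters, and binding was not measured. The GC content of the window is 62%, against a median of 52.4%.

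Pure cones were compared with pure starburst cells, the ends of the titration. Cacng2 read 6.10, 6.07 and 5.92 on the starburst arrays and 3.28, 2.62 and 4.89 on the cone arrays. All cone arrays lay below all starburst arrays, which held for 7 tested channel genes and for 17.9% of all tested genes. The third cone array stood well above the other two. The Cacng2 difference was -2.43 ± 0.37 on the log2 scale (limma adjusted p = 6.46e-05), a level 5.40-fold lower in cones. Cacng3 read 6.73, 6.00 and 6.81 in starburst cells and 2.31, 4.21 and 4.16 in cones. Again the groups did not overlap, and here the first cone array was the low one, under the filter. The Cacng3 difference was -2.95 ± 0.47 (adjusted p = 1.22e-04), 7.74-fold lower in cones.

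These were the 2 called genes of the 13 tested, both lower and none higher in cones, beside 8.42% of all tested genes called in either direction and 5.79% called lower. The spread in cones was wide, with an SD of 1.17 for Cacng2 and 1.08 for Cacng3 against 0.10 and 0.45 in starburst cells. With only the 2 groups in the fit, both stayed called (adjusted p = 0.0359 for Cacng2 and 0.0185 for Cacng3). Without pure cone replicate 3 the Cacng2 difference was -3.08, without pure cone replicate 2 it was -1.94 (adjusted p = 5.87e-04), and without pure cone replicate 1 the Cacng3 difference was -2.33 (adjusted p = 8.15e-08 for the first and 0.00112 for the last). The mean of 7 amacrine markers was also highest on the third cone array (4.39, against 3.94 and 3.76), where Cacng2 was highest. Its part in the Cacng2 value was not tested, and the difference was larger without that array.

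**Figure D1:**
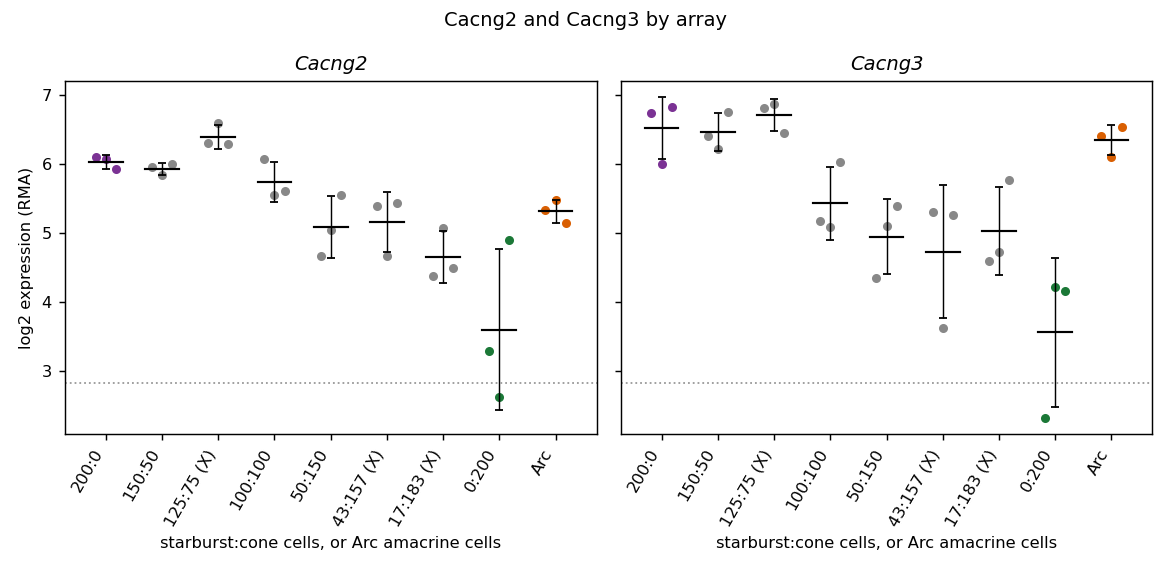
Log2 expression of Cacng2 and Cacng3 on every array (points, replicates 1 to 3 from left to right) in the 9 groups, ordered by the number of starburst and cone cells, with group means and SDs (black bars, n = 3) and the filter level of 2.83 (dotted). Both genes run from group means of 6.03 and 6.51 in pure starburst cells to 3.60 and 3.56 in pure cones, and stand at 5.31 and 6.34 in Arc cells.

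Among pore-forming subunits, Cacna1a, the pore of the P/Q-type channel that triggers release at many central synapses, read 3.86, 3.82 and 4.04 in starburst cells and 3.28, 3.13 and 3.28 in cones. The groups did not overlap. The difference of -0.68 ± 0.13 passed on the adjusted p (0.00111) but not on size. Cacna1b, the pore of the N-type channel, averaged 3.11 ± 0.10 in starburst cells and 2.81 ± 0.18 in cones, with a difference of -0.30 ± 0.13 (adjusted p = 0.150). The other 7 Cacna1 genes were too dim to test. For comparison, Cacna1f, the pore of the photoreceptor L-type channel that the rule leaves out, stood 2.20 ± 0.36 higher in cones (1.56e-04), and its partner Cacna2d4 1.23 ± 0.26 higher (0.00228). Both were also called without the third cone-rich arrays. Over the 13 tested channel genes, 10 differences were negative, with a median of -0.38 beside -0.04 for all tested genes.

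Auxiliary subunits differed by less than the threshold. Cacna2d1, the alpha2delta subunit that binds gabapentin, read 4.45, 4.21 and 4.19 in starburst cells and 3.31, 3.10 and 3.58 in cones. The groups did not overlap, yet the difference of -0.95 ± 0.33 missed both limits (adjusted p = 0.0568). Leaving out the third arrays of the 4 groups with over 100 cones gave -1.08 (adjusted p = 0.0394), which is a call. Cacna2d3, another alpha2delta subunit, differed by -0.46 ± 0.21 (0.166). Cacnb4, a beta subunit of presynaptic channels, differed by -0.38 ± 0.23 (0.308). Its cone arrays (3.14, 3.00 and 3.42) lay below its starburst arrays (3.71, 3.57 and 3.42) by a narrow margin. Cacng5, a TARP of the second type, read 5.03, 4.98 and 5.34 in starburst cells and 4.65, 4.26 and 4.56 in cones. Its difference of -0.63 ± 0.15 passed on the adjusted p (0.00527) but not on size. With quantile normalization the difference was -0.44.

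The remaining tested genes differed little between cones and starburst cells, and intervals set the limits. Cacng1, the muscle gamma subunit, differed by 0.08 with a 95% interval from -0.17 to 0.33. Cacng8, a TARP of the hippocampus, differed by -0.02 (-0.33 to 0.29), Cacng7 by -0.04 (-0.43 to 0.36), Cacng4 by 0.21 (-0.32 to 0.74) and Scn3b, the sodium channel beta3 subunit, by 0.24 (-0.22 to 0.70). Log2 differences of 1 lie outside all 5 intervals, but Cacng7, Cacng8 and Scn3b had means under the filter level in both groups, where the values set no limit on a difference in RNA. On the adjusted p alone, with no minimum size, 4 of 13 genes were lower in cones and none higher (Cacna1a, Cacng2, Cacng3 and Cacng5), beside 9.69% of all tested genes lower. This rule was added after the values were seen.

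**Figure D2:**
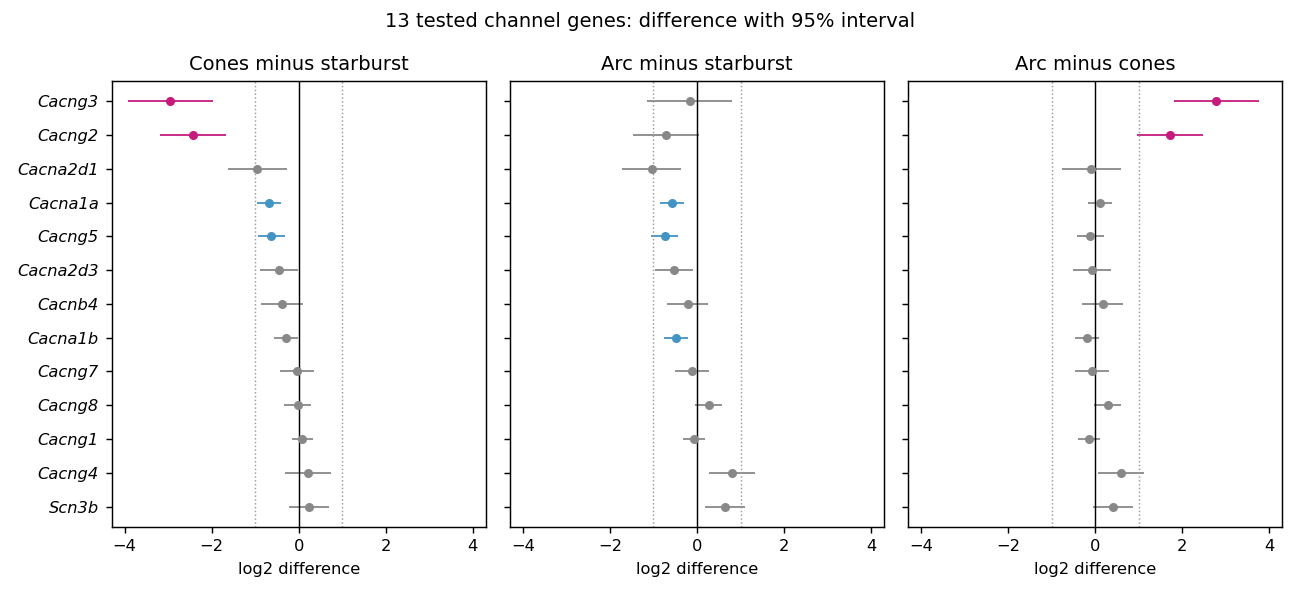
Log2 differences with 95% intervals for the 13 tested genes in 3 comparisons, with genes ordered by the first one. Magenta marks called genes, blue those that pass on adjusted p only, and dotted lines a difference of 1 either way. Cacng3 and Cacng2 are the only magenta points, lower in cones than in starburst cells and higher in Arc cells than in cones.

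Arc amacrine cells were next set against starburst cells, another amacrine type. No channel gene was called by limma among 13, beside 3.55% of all tested genes, while 7 had an unadjusted p under 0.05, as did 16.1% of all tested genes. Cacng3 read 6.41, 6.09 and 6.53 in Arc cells, within the range of the starburst arrays. Its difference was -0.17 ± 0.47, with an interval from -1.15 to 0.81, which does not show that the levels are equal. Cacng2 read 5.33, 5.47 and 5.14 in Arc cells, below every starburst array. All Arc arrays lay below all starburst arrays in 6 of the 13 channel genes and in 10.5% of all tested genes. The Cacng2 difference of -0.72 ± 0.37 was not called (adjusted p = 0.353, interval from -1.48 to 0.04).

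The genes that came closest to a call between the amacrine types were mostly lower in Arc cells. Cacna2d1 read 3.06, 3.45 and 3.20 there, all below the starburst arrays, and differed by -1.04 ± 0.33 (adjusted p = 0.0661). With the replicate number as a block its adjusted p was 0.0339, and with only the 2 groups in the fit 0.0119, so that it was called in both. Cacng5 read 4.39, 4.29 and 4.45 and differed by -0.74 ± 0.15 (0.00250), Cacna1a read 3.35, 3.38 and 3.26 and differed by -0.58 ± 0.13 (0.00885), and Cacna1b by -0.49 ± 0.13 (0.0304). These last 3 passed on the adjusted p but not on size, beside 2.24% of all tested genes lower on that rule. Cacna1b averaged 2.62 in Arc cells, under the filter.

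Cacng4, a TARP, and Scn3b pointed the other way. Cacng4 read 3.72, 3.53 and 4.64 in Arc cells against 2.99, 2.92 and 3.59 in starburst cells. The second Arc array lies under the third starburst array, so the groups overlap. Its difference was 0.80 ± 0.25 (adjusted p = 0.0728), and it was called higher without pure starburst replicate 3 or without Arc replicate 2. Scn3b read 2.49, 3.84 and 2.95 in Arc cells and between 2.34 and 2.51 in starburst cells, all under the filter level. It lay above that level on 3 arrays, among them the Arc arrays at 3.84 and 2.95. Scn3b was thus tested mainly through the group where it was high. Its difference of 0.65 ± 0.22 (0.103) moved with the second Arc array: without Arc replicate 2 it was 0.28 (adjusted p = 0.577), and without Arc replicate 1 it was 0.95 (0.00763).

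Arc cells were compared with cones last. This comparison shares its cone arrays and its Arc arrays with the ones above and is no independent check of them. Cacng3 stood 2.78 ± 0.47 higher in Arc cells (adjusted p = 1.83e-04) and Cacng2 1.71 ± 0.37 higher (0.00184), with no overlap between arrays in either gene. These were the 2 of 13 with all Arc arrays above all cone arrays, beside 22.6% of all tested genes. They were 2 of 13 called, beside 10.3% of all tested genes in either direction and 7.83% higher. On the adjusted p alone the same 2 of 13 were higher, beside 13.3% of all tested genes. With only these 2 groups in the fit the call of Cacng2 was lost (adjusted p = 0.0863), while Cacng3 kept it (0.0141). Leaving out cone arrays moved Cacng2 between 1.23 (without pure cone replicate 2) and 2.36 (without replicate 3), and Cacng3 between 2.16 (without replicate 1) and 3.11 (without replicate 2).

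The other 11 genes were not called between Arc cells and cones. Cacna1a differed by 0.10 (interval from -0.18 to 0.38), Cacng5 by -0.11 (-0.42 to 0.20) and Cacna2d1 by -0.09 (-0.77 to 0.59). In Cacna1a, Cacna1b, Cacna2d1, Cacng2 and Cacng5 every Arc and every cone array lay below every starburst array, beside 4.77% of all tested genes. For Cacna1b this rests on a very narrow margin, a highest cone array of 2.9919 against a lowest starburst array of 2.99198. In Cacng2 the cone arrays also lay below the Arc arrays.

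**Figure D3:**
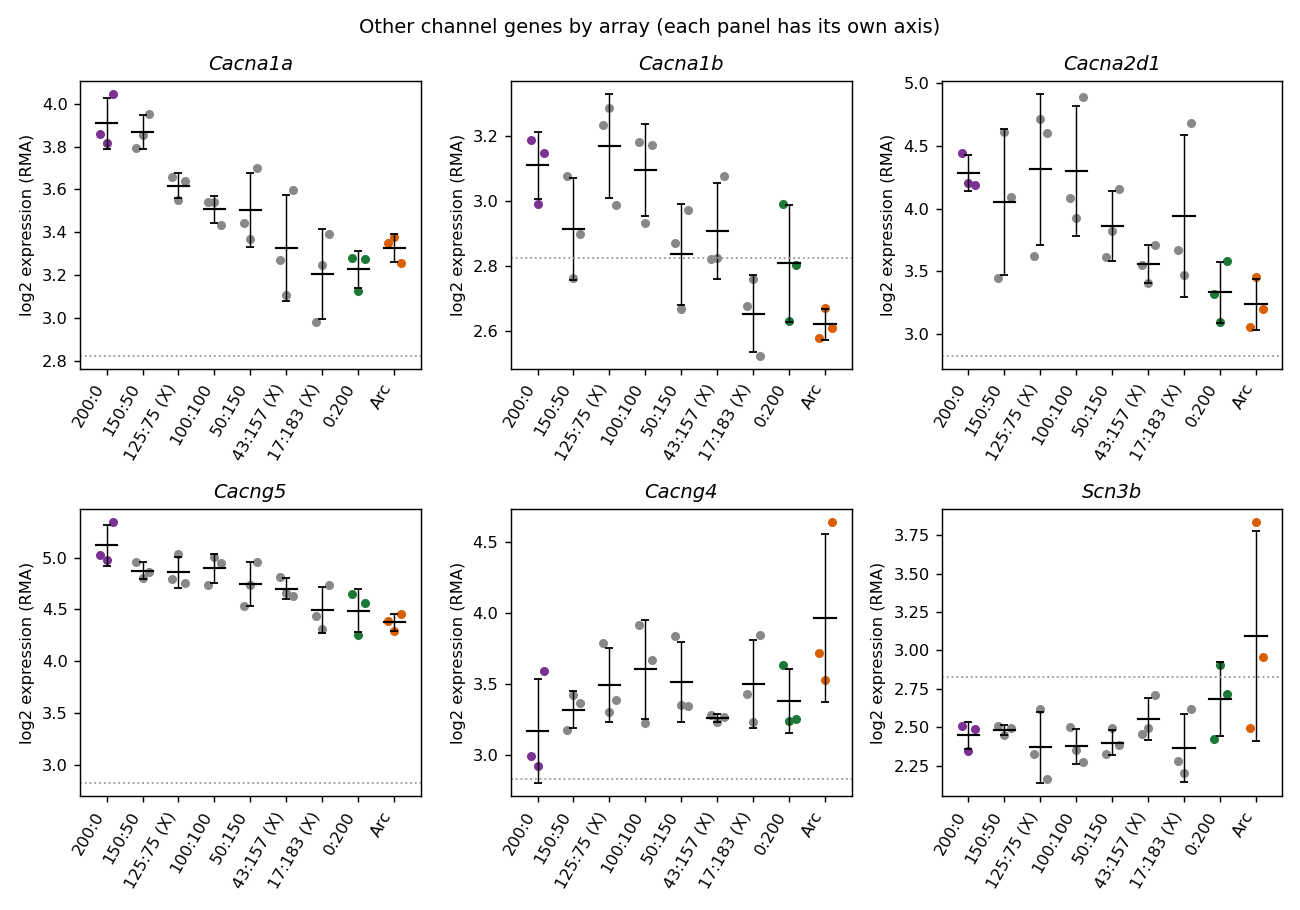
Log2 expression of Cacna1a, Cacna1b, Cacna2d1, Cacng5, Cacng4 and Scn3b on every array in the 9 groups (points, with group mean and SD, n = 3, and the filter level of 2.83 dotted; each panel has its own axis). Cacna1a runs from a mean of 3.91 in pure starburst cells to 3.23 in pure cones, and the Arc value of Scn3b rests on 1 high array at 3.84.

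The titration asked how levels follow the share of cones. A slope over the 5 titration groups gives the log2 change from 0 to 100% cones, and shares its end arrays with the comparison of pure cells. Cacng3 had a slope of -2.97 ± 0.42 (adjusted p = 2.72e-05) and Cacng2 of -2.28 ± 0.33 (3.14e-05). They were the 2 called of 13, beside 8.35% of all tested genes and 5.8% called lower. Cacna1a (-0.69 ± 0.12, 2.62e-04) and Cacng5 (-0.56 ± 0.13, 0.00503) also passed on the adjusted p alone, making 4 of 13 lower beside 12% of all tested genes, and Cacna2d1 did not (-0.84 ± 0.29, 0.0537).

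The 6 mixtures without the pure groups are arrays that the comparison of pure cells did not use. They shared 1 fit with the pure arrays, and same-numbered titration arrays shared pools. The mixtures are thus no independent check of that comparison. Cacng2 averaged 5.92 ± 0.08 with 50 cones, 6.39 ± 0.17 with 75, 5.74 ± 0.29 with 100, 5.09 ± 0.44 with 150, 5.16 ± 0.43 with 157 and 4.64 ± 0.37 with 183. The arrays with 150, 157 and 183 cones overlapped, while those with 50 and 75 all lay above them. The slope over these 18 arrays was -2.26 ± 0.45 (adjusted p = 0.00223). Cacng3 averaged 6.45 ± 0.27, 6.70 ± 0.23, 5.42 ± 0.52, 4.94 ± 0.54, 4.73 ± 0.96 and 5.02 ± 0.64 in the same order, with a slope of -2.87 ± 0.57 (0.00253), which became -3.50 (5.44e-04) without the third arrays of the groups with over 100 cones. They were again the 2 called of 13, beside 6.63% of all tested genes and 5.02% lower.

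Both TARP genes read highest of all groups in the mixture with 75 cones, whose cone markers were below those of the mixture with 50. Without that mixture the slopes were -1.89 ± 0.49 for Cacng2 (adjusted p = 0.0266) and -2.37 ± 0.63 for Cacng3 (0.0297), and both stayed called. Cacna1a had a slope of -0.83 ± 0.16 over the 6 mixtures (0.00222), under the size limit. Leaving out the third arrays with over 100 cones took it to -1.04 (1.73e-04), which is a call. Cacng5 (-0.51 ± 0.18, 0.0797), Cacna1b (-0.50 ± 0.16, 0.0565), Cacnb4 (-0.67 ± 0.28, 0.143) and Cacna2d1 (-0.71 ± 0.40, 0.298) were not called over the mixtures. Without the third arrays with over 100 cones the Cacna2d1 slope was -1.12, and it was still not called. On the adjusted p alone 3 of 13 were lower (Cacna1a, Cacng2 and Cacng3), beside 6.86% of all tested genes.

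On the linear scale the mixtures can be set against a straight line between the pure group means. The line rests on the pure cone arrays, and was drawn again without the third arrays of the groups with over 100 cones. Cacng2 lay above that line in all 6 mixtures, from 115% of the line value with 50 cones to 181% with 75 cones, and at 132% with 183 cones. Cacng3 lay above it with 50 (120%), 75 (164%) and 183 cones (169%) and below it with 100 (83.4%), 150 (94.98%) and 157 cones (96.7%). In that second line Cacng2 with 183 cones stood at 212% of the line and Cacng3 at 135%, and each mixture stayed on its side of the line. For the 720 genes called lower in cones the median share of the line was between 101% and 124% over the mixtures. These genes, Cacng2 and Cacng3 among them, were called on the same pure arrays that set the ends of the line. Their median is thus no independent yardstick. The values of single arrays scatter widely: with 157 cones, Cacng3 read 5.31, 3.61 and 5.26 on the log2 scale.

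**Figure D4:**
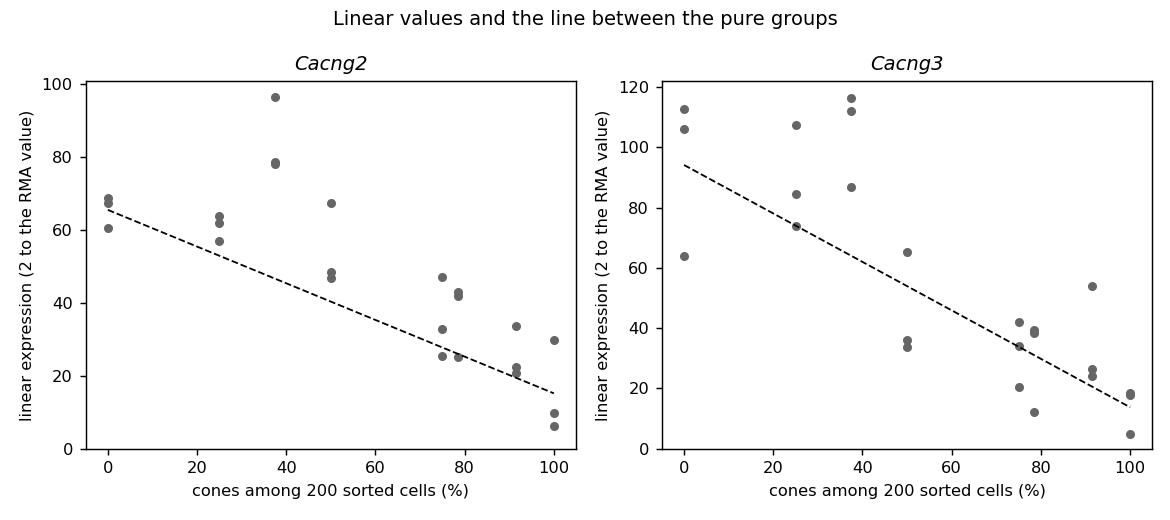
Linear expression (2 to the power of the RMA value) of Cacng2 and Cacng3 on the 24 arrays of starburst and cone cells against the percentage of cones, with a dashed line between the means of the pure groups. The arrays with 37.5% cones lie above the line in both genes, and the pure means at the ends of the line are 65.4 and 15.2 for Cacng2 and 94.1 and 13.8 for Cacng3.

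Apart from Scn3b in Arc cells, sodium channel genes had group means under the filter level. None of the 7 alpha subunits passed the filter, and their 189 values ran from 1.72 to 3.01, with 2 above 2.83, the highest being Scn2a on 1 array with equal numbers of cells. Scn11a had the highest mean of them, 2.52 over 27 arrays. Scn1a read 2.36, 2.45 and 2.54 in Arc cells and between 1.95 and 2.30 on the other 24 arrays, so its Arc arrays were the highest 3, but all under the filter and not tested. It was singled out after its values were seen. Of the beta subunits, Scn2b and Scn4b had no value above 2.83 among 54, and Scn3b had 3.

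The dim calcium channel genes also lay mostly under the filter level. The 7 untested Cacna1 genes, among them Cacna1c and Cacna1d of the L-type and Cacna1g, Cacna1h and Cacna1i of the T-type channels, had 4 of 189 values above 2.83 and group means between 2.16 and 2.76. Cacnb1 had its highest value of 3.34 on 1 array of the mixture with 50 cones, and Cacna2d2 never passed 2.86. For these 18 genes a level under 2.83 says only that it was not above the median of all values. That level is no measured background, and a value under it does not show that a transcript was absent. Cacng1 stood above the filter on all 27 arrays, with group means from 4.05 to 4.35, and 3 of 4 skeletal muscle markers also had means above the filter in every group. Whether its signal comes from the Cacng1 transcript was not tested.

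**Figure D5:**
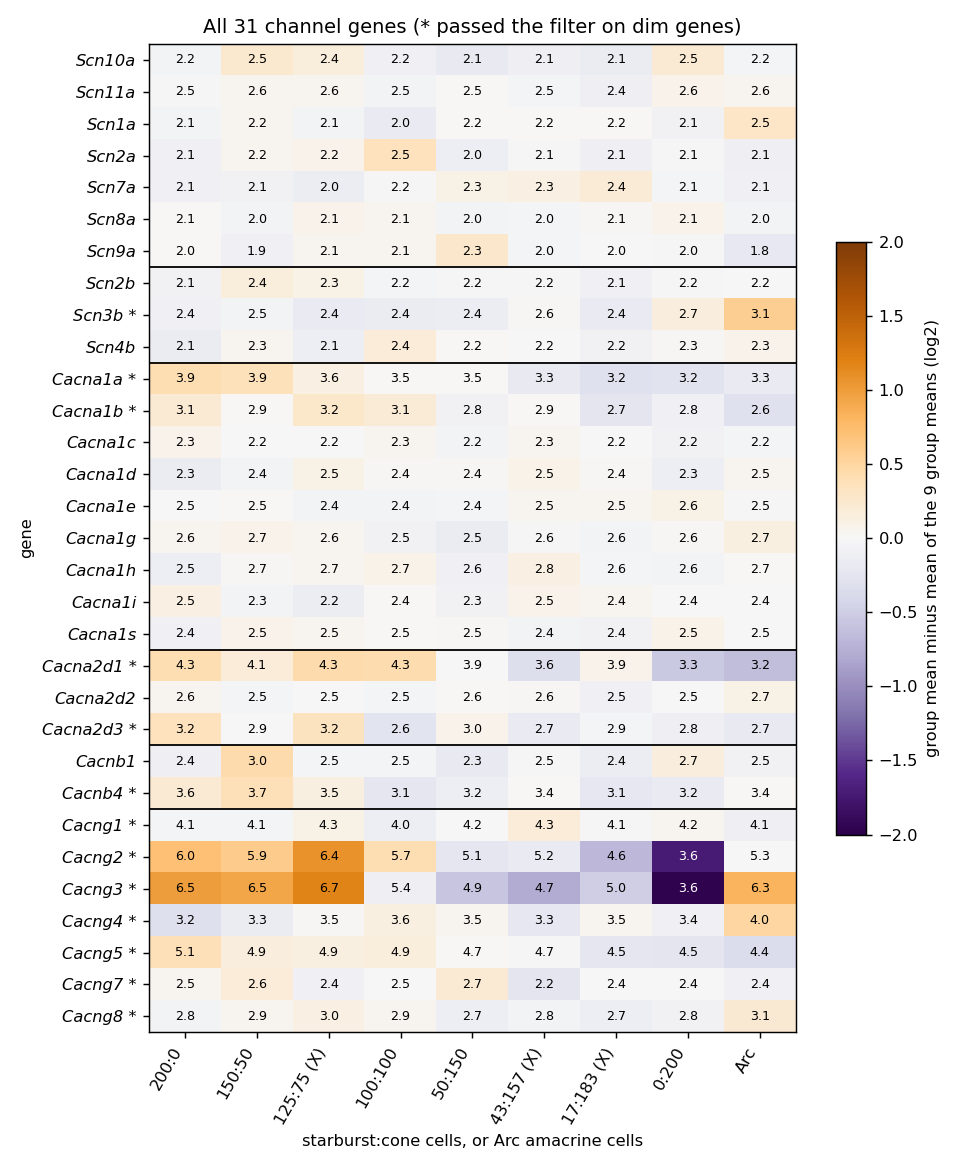
Mean log2 expression of all 31 channel genes (numbers, n = 3 arrays) in the 9 groups, with colour giving the difference from that gene's mean over the groups, and lines between the 6 gene classes. Colour should be read along a row, since levels of different probe sets are not comparable. The rows of Cacng2 and Cacng3 carry the strongest colours, and the highest group mean of a sodium channel alpha subunit is 2.585 (Scn11a in pure cones).

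AMPA receptors are the partners of the TARP proteins, and 13 of their genes were listed, of which 10 were tested. In cones 3 were lower and 1 higher than in starburst cells, beside 8.42% of all tested genes called: the receptor subunits Gria4 (-1.64 ± 0.26) and Gria2 (-1.37 ± 0.20) and the scaffold Dlg2 (-1.47 ± 0.36) were lower, and the cargo receptor Cnih4 (1.12 ± 0.37) higher. In Arc cells 2 were higher than in starburst cells, beside 3.55% of all tested genes called, the subunit Gria3 (1.31 ± 0.25) and the auxiliary subunit Cnih2 (1.09 ± 0.30). Against cones 4 were higher in Arc cells (Gria3, Gria4, Dlg2 and Cnih2), beside 10.3% called. The median of the list was -0.07 between cones and starburst cells and 0.63 between Arc cells and cones, beside -0.04 and 0.07 for all tested genes. Over the titration Gria4, Dlg2 and Gria2 had called slopes (-1.50, -1.56 and -1.12), beside 8.35% of all tested genes called and 5.8% called lower. Over the mixtures Dlg2 (-1.74) and Gria2 (-1.10) were called, beside 6.63% of all tested genes called and 5.02% called lower. Without the third arrays of the groups with over 100 cones Gria4 was called over the mixtures too (-1.35, adjusted p = 0.00315, against -0.95 with them), and the other calls of the list were kept.

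Channel partners were listed as well, with 30 genes of sodium channel anchors, calcium channel modulators and active zone scaffolds, of which 24 were tested. Cones had 4 lower and 1 higher than starburst cells, beside 8.42% of all tested genes called. The active zone protein Erc1 (-3.33 ± 0.58), the calcium sensor Cabp1 (-1.94 ± 0.27), the channel adaptor Stac2 (-1.72 ± 0.38) and Fgf12, which binds sodium channels (-1.41 ± 0.18), were lower, and the calcium sensor Cabp5 (2.56 ± 0.38) was higher. No partner gene was called between Arc and starburst cells, beside 3.55% of all tested genes, where the medians of the list and of all tested genes were both 0.03. Fgf12 (0.92 ± 0.18, adjusted p = 0.00223), Ank2 (0.65 ± 0.15, 0.0105) and Fgf13 (0.77 ± 0.20, 0.0203) were higher in Arc cells on the adjusted p but not on size. The cone arrays of Erc1 had an SD of 2.06, and its difference was -4.47 without the third cone-rich arrays. Over the mixtures Cabp1 (-2.01 ± 0.33), Stac2 (-2.14 ± 0.46) and Cabp5 (2.83 ± 0.46) were called, beside 6.63% of all tested genes. Erc1 (-1.86 ± 0.70, adjusted p = 0.107) and Fgf12 (-0.90 ± 0.22, 0.0119) were not called over the mixtures. Without the third arrays Erc1 was called there (-2.02, 0.00138), and without the mixture with 75 cones Stac2 was not (-1.62, 0.0619) and Cabp1 had a slope of -1.33 (0.0326). Leaving out the third arrays also added calls of Gem, a channel inhibitor, and Cabp4, a calcium sensor of photoreceptors. Both were then called higher in cones than in starburst cells (2.81 and 1.32, against 1.96 and 0.94 with all arrays). Over the mixtures both calls were added too (2.48 and 1.31, against 1.43 and 0.99). Between Arc cells and cones 4 were higher and 2 lower, beside 10.3% called, led by Erc1 (3.72) and Fgf12 (2.33) on the higher side and Cabp5 (-2.60) on the lower. Without the third arrays Cabp4 (-1.23, against -0.85 with them) and the adhesion molecule Nrcam (-1.82, against -1.14) were also called lower. The share of all tested genes called without those arrays is not given here. Erc1 then stood at 4.86, and Gem at -3.00 against -2.15 with all arrays. Cabp5 is itself among 7 listed bipolar cell markers, of which 6 were measured, Cabp5 among them. These 6 averaged 3.44 in cones, 2.68 in starburst cells and 2.60 in Arc cells, so their mean is partly the Cabp5 value itself. The part of bipolar cells in the Cabp5 values was not tested.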

How the data were processed

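The deposited table holds log2 values that the authors made with RMA and oligo in R 2.11.1, naming build mm9, per the submitters' processing notes. RMA subtracts background, normalizes between arrays and summarises probes into 1 value per probe set, which compresses differences of dim genes. The values were used as deposited. Array medians lay between 2.78 and 2.89.

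Of 22347 probe sets, 19446 carried 1 gene symbol, and 735 with several and 2166 with none were left out. Each of the 31 channel genes had 1 probe set. All 27 arrays entered 1 fit per gene in limma 3.58.1 (R 4.3.3), with 1 mean per group and 18 residual degrees of freedom, and all tests were two-sided with Benjamini-Hochberg adjustment. Slopes were contrasts of group means. Scripts were tested on simulated data.

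Named in full were genes called in any comparison and, in each class, the one with the highest mean over all arrays and the uncalled tested one with the largest difference between cones and starburst cells. Any other channel gene given with values (such as Cacna1b, Cacng4 and Scn1a) falls outside that rule and was picked with its values known. Of the other lists, the 4 called genes with the largest differences in a comparison were to be named. Fgf12 between cones and starburst cells, and genes whose call changed without some arrays, were added with their values known. So were Fgf12, Ank2 and Fgf13 between Arc and starburst cells. The genes, lists and tests were chosen with earlier results of these data known.

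The design says that the titration mixtures were sorted 3 times from different mice, so replicate numbers mark shared pools there. Deviations from group means of same-numbered titration arrays correlated between -0.03 and 0.23 over 30 pairs (median 0.02), and 3 pairs passed 0.1. Over all groups 16 of 108 same-numbered pairs passed 0.1 (highest 0.305), against 5 of 216 with different numbers. The labels do not say whether the other groups shared the pools. Replicates were taken as separate samples as labelled. Some items are not reported here.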

Additional observations from a re-analysis of the deposited data

How the results depend on the processing

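Calls of Cacng2 and Cacng3 between cones and starburst cells, and over both slopes, held under no filter, a stricter filter, a replicate block, a fit of the groups compared alone, equal array medians, quantile normalization, a variance trend and the third arrays with over 100 cones left out. The number of channel genes called between Arc and starburst cells, 0, became 1 with the replicate block and 1 with only the groups compared (Cacna2d1 both times), and between 0 and 1 on leaving out 1 array (Cacng4). Between Arc cells and cones 2 became 1 with only the groups compared. The cause was not tested. The replicate block changed no other call. On adjusted p alone, added after the data were seen, the counts were 4 for cones against starburst cells, 3 for Arc against starburst cells and 4 for the titration slope, since the size limit is dropped. With 1 array left out, counts of 2 stayed at 2 in the other 4 comparisons. The difference of Cacna2d1 between Arc cells and cones, -0.09, was 0.031 with the third cone-rich arrays left out and lay between -0.211 and 0.031 with 1 array left out. The mixture slope of Scn3b, -0.0023, lay between -0.0746 and 0.0807 with 1 array left out, and was -0.159 with the third cone-rich arrays left out. The mean of probe sets could not change a channel gene, since each has 1. Both other scalings moved the median of all genes by less than 0.1. Quantile normalization moved Cacng5 further, from -0.63 to -0.44 between cones and starburst cells and from -0.56 to -0.35 over the titration. Under the settings that leave out no single array, its adjusted p reached 0.0894 and 0.124 in these comparisons. The pass of Cacng5 on adjusted p alone thus did not hold under every setting. Low signal limits the 18 dim genes.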
